A study of Rattus norvegicus with 6 samples.

Results

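The 32 genes described here encode the protein folding and protein disposal machinery of the endoplasmic reticulum (ER). They were taken by symbol from a table of 34257 genes, all 32 symbols matched exactly 1 row each, and 31 were expressed above the filter used for testing. They fall into 12 chaperones and their cofactors, 7 disulfide isomerases, 9 genes of ER-associated degradation, 2 translocon subunits and 2 stress sensors. Poly(A) RNA came from neonatal rat ventricular cardiomyocytes in primary culture. The study compared 3 vehicle libraries with 3 libraries of cells exposed to perhexiline, an antianginal inhibitor of carnitine palmitoyltransferase 1, at 1 µM for 24 h. The labels give no genotype, strain, vehicle solvent or vehicle exposure time, and do not say whether replicates were separate cultures or animals, so a p-value here reflects the spread between libraries, which may be technical.

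Secretory and membrane proteins enter the ER through the Sec61 channel and are folded by the Hsp70-type chaperone BiP (Hspa5), the Hsp90-type chaperone GRP94 (Hsp90b1), the lectin chaperones calreticulin and calnexin, and disulfide isomerases. Proteins that fail to fold are passed back to the cytosol through the SEL1L-HRD1 complex and destroyed by the proteasome, which is ER-associated degradation. When unfolded proteins accumulate, IRE1 (Ern1), PERK (Eif2ak3) and ATF6 start the unfolded protein response. ATF6 and spliced XBP1 act on ER stress elements in the promoters of chaperone and degradation genes, while PERK acts through ATF4 and CHOP (Ddit3) on a largely separate set of genes. In heart muscle the sarcoplasmic reticulum is a specialised part of the same membrane system.

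Promoter windows were searched for exact matches to the classical elements of this response, and the matches are given before the expression values. RefSeq windows (build GRCr8, from 250 bases before to 50 after a gene start) were found for 25 of the 32 members, with 2 windows for Hyou1. The other 7 members, Sec61a1 and Ern1 among them, could not be searched. The ER stress element ERSE (CCAAT and CCACG with 9 free bases between them, searched on both strands) was found in 7 of 26 member windows and in 22 of all 33469 windows (0.0657%). The shorter element ERSE-II (ATTGG and CCACG with 1 free base between them) was found in 3 member windows and in 17 of all windows (0.0508%). The XBP1-type element UPRE (TGACGTGG) was found in 2 member windows, those of Hyou1 and Txndc11, and in 199 of all windows (0.595%). In Hyou1 the UPRE overlaps the more distant of its ERSE-II matches. The counts over all windows include the member windows, and the shares were not tested against each other. A match is a description of letters in the window, not evidence of binding. Variants of these letters and elements outside the windows were not sought. Elements of 9 members follow, each 5′ to 3′ in the direction of the element with 10 bases on either side and the fixed letters of the element in capitals.
Calr, ERSE, chr19:40213125-40213163, minus strand: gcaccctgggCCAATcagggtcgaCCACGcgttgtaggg
Creld2, ERSE, chr7:121789229-121789267, minus strand: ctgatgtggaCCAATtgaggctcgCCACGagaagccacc
Derl3, ERSE, chr20:12766591-12766629, plus strand: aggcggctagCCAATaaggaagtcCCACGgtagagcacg
Dnajc3, ERSE, chr15:102432524-102432562, plus strand: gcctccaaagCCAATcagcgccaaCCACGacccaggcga
Hsp90b1, distal ERSE, chr7:23012441-23012479, minus strand: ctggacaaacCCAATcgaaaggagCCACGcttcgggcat
Hsp90b1, proximal ERSE, chr7:23012337-23012375, plus strand: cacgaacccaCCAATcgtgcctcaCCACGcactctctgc
Hspa5, ERSE, chr3:38452963-38453001, plus strand: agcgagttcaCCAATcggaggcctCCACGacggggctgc
Dnajb11, ERSE-II, chr11:91672790-91672820, minus strand: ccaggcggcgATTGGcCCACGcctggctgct
Herpud1, ERSE-II, chr19:10614811-10614841, minus strand: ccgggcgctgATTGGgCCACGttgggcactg
Hyou1, distal ERSE-II, chr8:53602684-53602714, minus strand: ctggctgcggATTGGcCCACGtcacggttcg
Hyou1, proximal ERSE-II, chr8:53602784-53602814, minus strand: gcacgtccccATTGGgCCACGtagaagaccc

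Hspa5, the standard reporter gene of ER stress, is shown with its whole window, since its level is the first value a reader would look for. Its exact ERSE match, in capitals, lies 43 to 25 bases before the gene start.
Hspa5 promoter, chr3:38452766-38453065, plus strand: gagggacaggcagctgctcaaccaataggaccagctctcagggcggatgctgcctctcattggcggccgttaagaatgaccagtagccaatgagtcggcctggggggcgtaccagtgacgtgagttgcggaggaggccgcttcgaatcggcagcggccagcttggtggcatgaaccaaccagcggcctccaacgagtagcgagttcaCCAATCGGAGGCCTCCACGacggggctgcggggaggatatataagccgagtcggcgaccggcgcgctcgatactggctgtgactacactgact
The 9 tested members with an ERSE or ERSE-II had log2 differences between perhexiline and vehicle from -0.13 to 0.11, with a median of -0.02. The 15 tested members whose windows held neither ran from -0.07 to 0.42, with a median of 0.08. None of either group passed in limma or limma-voom, and at an unadjusted p under 0.05 there were 0 of the 9 and 2 of the 15 (Dnajb9 and Selenos), against 25.7% of all tested genes, of which limma called 6.66%. No test compared the groups of promoters.

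Beyond the members, 20 genes of the table had an ERSE or ERSE-II in a RefSeq window, and 13 of them were tested. By limma 0 of the 13 passed, 2 had an unadjusted p under 0.05, and 1 (Zfand2a, an arsenite-inducible proteasome cofactor) passed with limma-voom. Their log2 differences ran from -0.37 to 0.43, with a median of -0.01. Xbp1, the transcription factor spliced by IRE1, is among them and stood at 72.4, 76.4 and 67.6 FPKM with vehicle and 76.9, 74.5 and 71.4 with perhexiline (adjusted p = 0.685 in limma). Its libraries overlap. Splicing of Xbp1 cannot be read from gene totals.

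Levels are FPKM, fragments scaled by gene length and sequencing depth, which allows genes to be compared with each other. Fragments recovered from them numbered 13616252 to 15241994 per vehicle library and 14863929 to 16702523 per perhexiline library. The depth in the deposited values is not proportional to these totals. Scaling to the totals (total-fragment scaling) divides vehicle values by 1.000 to 1.035 and perhexiline values by 0.972 to 0.986. Differences are perhexiline minus vehicle on log2(FPKM + 1), tested with limma over the 13460 genes that reached 1 FPKM in 3 or more libraries. Calls are at 0.05 after Benjamini-Hochberg adjustment over those genes. Over all tested genes 6.66% were called, 3.55% higher and 3.11% lower (53.3% of the calls higher, against 42.4% under upper-quartile and 70.7% under total-fragment scaling), and the groups did not overlap for 31.9%. Cardiomyocyte markers summed to 18802 to 22651 FPKM with vehicle and 15515 to 17867 with perhexiline, where limma called 4 of 11 lower. All 11 had differences below 0, with a median log2 difference of -0.37. Of these markers limma-voom called 7 lower, and 8 had an unadjusted p under 0.05 (25.7% of all tested genes). Fibroblast markers summed to 1397 to 1461 and 1411 to 1483 FPKM (2 of 10 rose and 2 fell), and smooth muscle and pericyte markers to 1289 to 1783 and 1159 to 1393, where limma called 0 of 10, limma-voom called 4 lower and 6 had an unadjusted p under 0.05. Endothelial markers summed to 19.6 to 22.9 and 21.5 to 23.1 FPKM, with 0 of 6 called by either tool and 0 at an unadjusted p under 0.05. Macrophage and leukocyte markers summed to 96.3 to 101.1 and 53.0 to 80.8 FPKM, with 2 of 9 called lower by limma and 4 by limma-voom. All 9 had differences below 0, and 5 had an unadjusted p under 0.05. No marker of these lists that the table holds was at 0 in all libraries, and Pecam1, Itgam and Ttn were not found by symbol. The part of cell composition in the results that follow was not tested, and in such bulk RNA fewer cells of a type and less RNA per cell cannot be told apart.

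None of the 31 tested members passed in limma. At an unadjusted p under 0.05 there were 4 (12.9%), Dnajb9, Selenos, Sec61a1 and Ern1, against 25.7% of all tested genes. Calls were also 0 when limma-voom was run on recovered fragments (11.7% of all tested genes called), upper-quartile scaling (6.43%), median-of-ratios scaling (6.61%) and a replicate block (1.29%). Total-fragment scaling called 2 members higher (6.05% of all tested genes), and a mean FPKM of at least 5 called 1 (6.28%). The perhexiline libraries lay entirely above the vehicle libraries for 8 members and entirely below for none, against 17.0% and 14.9% of all tested genes. The median log2 difference was 0.07, against 0.01 over all tested genes, and the median absolute difference 0.08 against 0.12. Differences were above 0 for 20 members (64.5%, against 52.9% of all tested genes). That count was 18 under upper-quartile and 27 under total-fragment scaling. The median over all tested genes was -0.01 under upper-quartile and 0.06 under total-fragment scaling. The 95% interval of the difference lay within 1.5-fold in either direction for 30 of the 31 members (96.8%, against 82.3% of all tested genes) and within 2-fold for all 31.

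**Figure D1:**
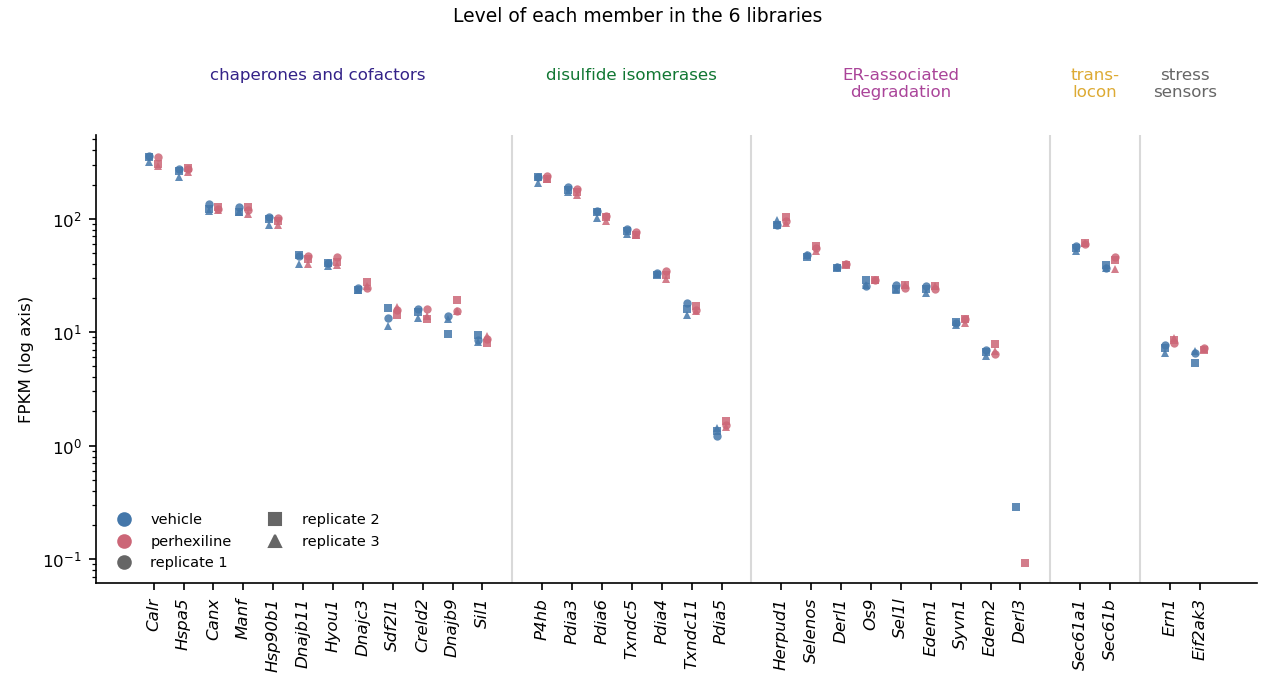
FPKM (log axis) of each member in each library, by role, with vehicle in blue, perhexiline in red and the marker shape giving the replicate; libraries in which Derl3 is listed at 0 are not drawn. Levels span from Calr, at 342 FPKM with vehicle, to Derl3, at 0 in 4 libraries, and vehicle and perhexiline markers lie close together for most genes.

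Chaperones and their cofactors were abundant, and none of 12 passed. Calr, the calcium-binding lectin chaperone of the ER lumen (chromosome 19, 25956771 to 25961666 in the deposited table), was the most abundant member, at 360, 352 and 314 FPKM with vehicle and 347, 303 and 291 with perhexiline. The groups overlap, vehicle replicate 3 lying below perhexiline replicate 1. The log2 difference was -0.13 ± 0.0818 (SE; 95% interval -0.32 to 0.06; adjusted p = 0.371 in limma), the most negative among the members. Hspa5 (chromosome 3, 13838304 to 13842762), the BiP gene, stood at 277, 262 and 231 FPKM with vehicle and 276, 279 and 256 with perhexiline, so that the lowest library was a vehicle library and the rest lay together. Its log2 difference was 0.08 ± 0.0738 with an interval of -0.09 to 0.25. In a fold on the log2(FPKM + 1) scale, that interval ends at 1.19.

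Dnajb9, a J-domain cochaperone of BiP also known as ERdj4 (chromosome 6, 64165913 to 64170151), had the largest positive difference of all members. Levels were 13.8, 9.64 and 13.1 FPKM with vehicle and 15.3, 19.1 and 15.3 with perhexiline. All perhexiline libraries were above all vehicle libraries, with vehicle replicate 2 the lowest and perhexiline replicate 2 the highest. The log2 difference was 0.42 ± 0.141 (interval 0.09 to 0.75, adjusted p = 0.114 in limma, unadjusted p = 0.0185), and Dnajb9 is the 1 member whose interval reaches past 1.5-fold. Its log2 difference was 0.28 to 0.51 when single libraries were left out.

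The remaining chaperones and cofactors lay between -0.04 and 0.19 on the log2 scale. Sdf2l1, which forms a complex with BiP and Dnajb11, averaged 13.6 ± 2.42 FPKM in the vehicle and 15.5 ± 1.31 in the perhexiline libraries (SD, n = 3, as for the pairs of means that follow, vehicle first), and its groups overlap. Dnajc3, the J-domain protein p58IPK, stood at 23.9 ± 0.566 and 25.9 ± 1.43 FPKM (adjusted p = 0.263 in limma) without overlap. Hyou1, a nucleotide exchange factor of BiP, stood at 40.04 ± 1.68 and 42.2 ± 3.50 FPKM. Hsp90b1 stood at 96.9 ± 8.46 and 95.4 ± 6.59 FPKM, and the membrane-bound lectin chaperone Canx at 125 ± 9.23 and 123 ± 4.55. Manf, a secreted ER stress factor, stood at 118 ± 7.43 and 118 ± 8.92 FPKM. The cochaperone Dnajb11 was at 44.9 ± 4.62 and 43.5 ± 3.54, the other exchange factor Sil1 at 8.69 ± 0.599 and 8.67 ± 0.539, and Creld2, an ER-resident protein with CXXC motifs, at 14.8 ± 1.31 and 14.4 ± 1.41. The sign of the small differences of Hsp90b1, Canx, Manf, Dnajb11, Sil1 and Creld2 turns with the scaling between libraries.

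None of the 7 disulfide isomerases passed in limma (6.66% of all tested genes) or limma-voom (11.7%), and 0 had an unadjusted p under 0.05 (25.7%). P4hb, the founding protein disulfide isomerase and also a subunit of prolyl 4-hydroxylase, stood at 234, 232 and 207 FPKM with vehicle and 237, 225 and 222 with perhexiline. Its vehicle libraries span the perhexiline ones apart from perhexiline replicate 1, and its log2 difference of 0.03 ± 0.0611 turns sign under upper-quartile scaling. Pdia3, which works with calnexin and calreticulin on glycoproteins, measured 190.2, 180.5 and 171 FPKM with vehicle and 182, 173 and 163 with perhexiline, again overlapping.

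Pdia6, which acts on IRE1 as well as on folding substrates, had the most negative difference among the isomerases. Its libraries read 117, 114 and 102 FPKM with vehicle and 106, 104 and 95.3 with perhexiline (log2 difference -0.12 ± 0.0685, interval -0.28 to 0.04, adjusted p = 0.307 in limma). Vehicle replicate 3 lay below perhexiline replicates 1 and 2. Pdia5, reported to act on ATF6, was the least abundant tested member, at 1.21, 1.35 and 1.44 FPKM with vehicle and 1.53, 1.65 and 1.45 with perhexiline, and had the most positive difference of this role (0.12 ± 0.111). The closest libraries of the 2 groups of Pdia5, 1.44 and 1.45 FPKM, are nearly equal. The others were Pdia4, at 32.4 ± 0.789 and 32.02 ± 2.41 FPKM, Txndc5, at 77.5 ± 4.01 and 73.5 ± 2.23, and Txndc11, at 16.2 ± 1.95 and 15.9 ± 0.878. The differences of Pdia4 and Txndc11, just below 0, lie just above 0 under total-fragment scaling.

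**Figure D2:**
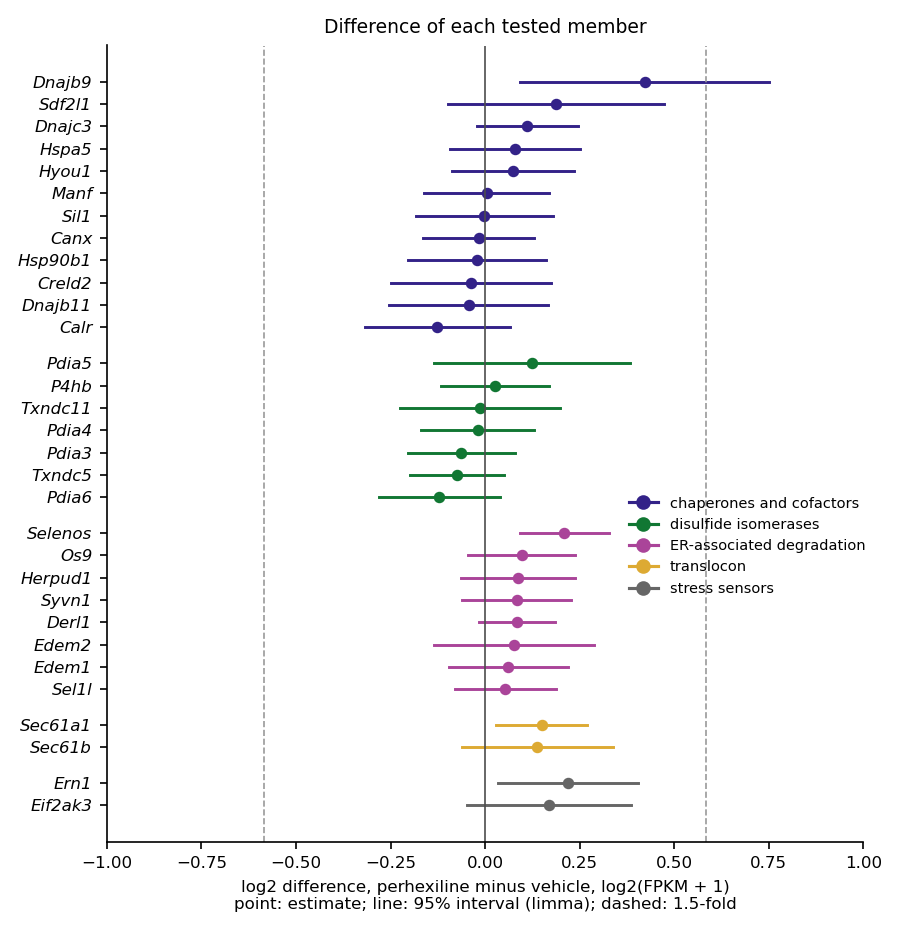
Log2 difference (perhexiline minus vehicle) of each of the 31 tested members by role, with its 95% interval from limma; dashed lines mark 1.5-fold in either direction. Dnajb9 alone has an interval that crosses a dashed line, and the intervals of Dnajb9, Selenos, Sec61a1 and Ern1 leave out 0.

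None of the 8 tested genes of ER-associated degradation passed in limma or limma-voom, and 1, Selenos, had an unadjusted p under 0.05. All 8 differences were above 0, as were 52.9% of those of all tested genes, and ran from 0.05 to 0.21 with a median of 0.08. All 8 stayed above 0 under each of the 3 other scalings and in each of the 6 fits without 1 library. Among the folding genes the count above 0 varied with the scaling, from 5 of 12 chaperones and 1 of 7 isomerases under upper-quartile to 11 of 12 and 4 of 7 under total-fragment scaling. Without perhexiline replicate 3 it was 9 of 12 and 4 of 7, against 6 of 12 and 2 of 7 with all libraries. No test compared the roles with each other, and 1 scaling factor shared by all genes of a library moves every difference together.

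Selenos (chromosome 1, 126979575 to 126989344), a selenoprotein of the ER membrane that recruits the ATPase p97 to the degradation complex, came closest to the threshold. Its level was 47.7, 46.4 and 47.4 FPKM with vehicle and 55.3, 56.9 and 51.9 with perhexiline. The vehicle libraries lie close together and below every perhexiline library. The log2 difference was 0.21 ± 0.0501 (interval 0.09 to 0.33, adjusted p = 0.0513 in limma, unadjusted p = 0.00354). It passed under total-fragment scaling (adjusted p = 0.0308 in limma) and with only genes of a mean FPKM of at least 5 (0.0399), and its adjusted p over all alternatives ran from 0.0308 to 0.163.

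Herpud1, a scaffold that brings derlins and HRD1 together, was the most abundant gene of this role. Its libraries read 87.8, 88.5 and 97.8 FPKM with vehicle and 95.8, 104 and 91.8 with perhexiline, with vehicle replicate 3 above perhexiline replicates 1 and 3. Sel1l, the adaptor of HRD1, had the smallest difference, with 25.8, 24.2 and 23.6 FPKM in the vehicle libraries and 24.4, 26.3 and 25.8 in the perhexiline libraries (log2 difference 0.05 ± 0.0569). Its groups overlap. Syvn1, which encodes HRD1 itself, stood at 11.9 ± 0.309 and 12.7 ± 0.610 FPKM. Derl1, a membrane channel component, stood at 37.3 ± 0.560 and 39.6 ± 0.118 FPKM without overlap (adjusted p = 0.268 in limma). The lectin Os9 stood at 26.8 ± 1.91 and 28.6 ± 0.0900, and the mannosidase-like genes Edem1 and Edem2 at 23.9 ± 1.78 and 24.98 ± 0.973 and at 6.59 ± 0.403 and 7.01 ± 0.733 FPKM. Derl3 was not tested: it was listed at 0 in 4 libraries, at 0.286 FPKM in vehicle replicate 2 and at 0.0927 in perhexiline replicate 2.

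The 2 translocon members and the 2 stress sensors had small positive differences, and none of these 4 genes passed. The gamma subunit Sec61g is not a member, and its mean was lower with perhexiline, as given below. Sec61a1, the pore of the Sec61 channel, stood at 57.2, 55.5 and 51.8 FPKM with vehicle and 59.9, 61.2 and 61.5 with perhexiline, without overlap (log2 difference 0.15 ± 0.0512, adjusted p = 0.12 in limma, unadjusted p = 0.0207). Under total-fragment scaling it passed, with an adjusted p of 0.0426 in limma. Sec61b, the small beta subunit, stood at 36.5, 38.99 and 37.03 FPKM with vehicle and 45.5, 42.9 and 36.1 with perhexiline, where perhexiline replicate 3 was the lowest of all 6. Its log2 difference was 0.14 ± 0.0854.

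Ern1, the kinase and RNase IRE1, was at 7.65, 7.27 and 6.56 FPKM with vehicle and 8.01, 8.54 and 8.92 with perhexiline. Every perhexiline library was above every vehicle library, and the log2 difference was 0.22 ± 0.0797 (interval 0.03 to 0.40, adjusted p = 0.139 in limma, unadjusted p = 0.0268). Eif2ak3, the kinase PERK, stood at 6.52, 5.37 and 6.83 FPKM with vehicle and 7.26, 7.03 and 7.06 with perhexiline, again without overlap. Its vehicle libraries varied more than its perhexiline libraries, and its log2 difference was 0.17 ± 0.0929 (adjusted p = 0.292 in limma). RNA levels of the sensors say nothing of their activity, which lies in phosphorylation and oligomerisation.

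Folding genes moved together between replicates of the same group. Among the 19 tested chaperones and isomerases, vehicle replicate 3 was the lowest vehicle library for 15, and perhexiline replicate 3 the lowest perhexiline library for 14, while over all tested genes these shares were 35.4% and 29.6%. Chaperones and cofactors summed to 1167, 1111 and 1011 FPKM with vehicle and 1139, 1100.2 and 1024 with perhexiline. Disulfide isomerases summed to 675, 653 and 600.4 FPKM with vehicle and 653, 625 and 599 with perhexiline. For both roles the spread between replicates was wider than the distance between group means. Low sums in replicate 3 were not confined to folding genes. The N-glycosylation genes described below also summed lowest in replicate 3 of both groups. Cardiomyocyte markers summed lowest in vehicle replicate 3 and perhexiline replicate 2. The other degradation genes described below summed lowest in vehicle replicate 2 and perhexiline replicate 3.

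The degradation genes summed to 269, 268 and 272 FPKM with vehicle and 287, 301 and 282 with perhexiline, without overlap, as also under the 3 other scalings, where the ratio of means was 1.06 to 1.12. The translocon members Sec61a1 and Sec61b summed to 88.8 to 94.5 FPKM with vehicle and 97.7 to 105 with perhexiline, and under upper-quartile scaling these ranges overlap. Sec61g, whose mean was lower with perhexiline, is not in this sum. The sensors summed to 12.6 to 14.2 and 15.3 to 16.0 FPKM. These sums are weighted towards the most abundant gene of each role. Cardiomyocyte and macrophage markers were lower in the perhexiline libraries, as given above, and their part in these sums was not tested.

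**Figure D3:**
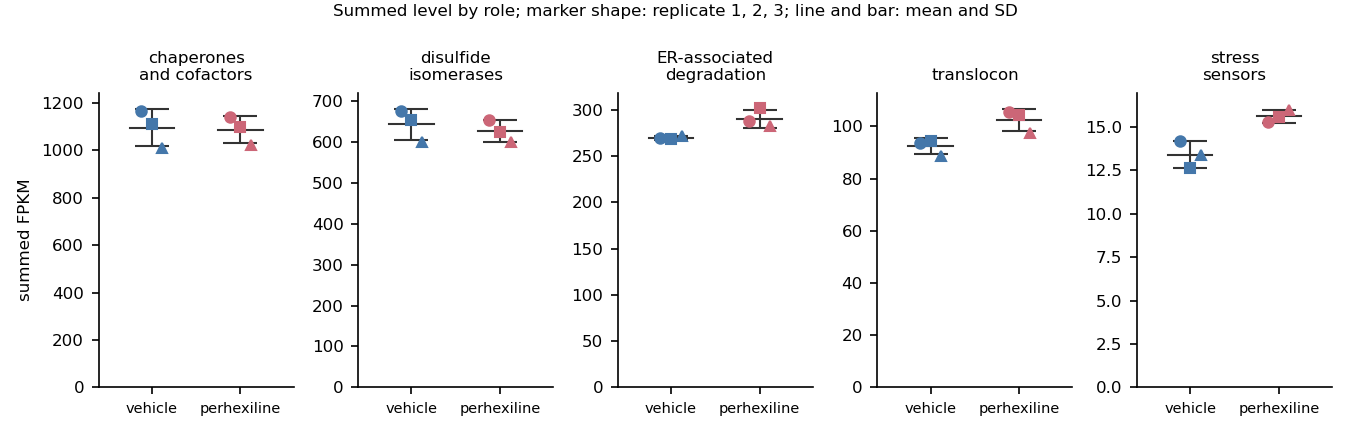
Summed FPKM of each role in each library, with lines and bars for the mean and SD of 3 libraries. Chaperones and isomerases overlap between groups and are low in replicate 3 of both, while the degradation genes sum to 268 to 272 FPKM with vehicle and 282 to 301 with perhexiline.

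Lists of other genes of the ER pathway gave few calls. Of 17 other folding factors 0 passed in limma or limma-voom, and 2 had an unadjusted p under 0.05 (25.7% of all tested genes). The most abundant were the collagen chaperone Serpinh1, at 332 ± 21.6 and 297 ± 21.6 FPKM, and the prolyl isomerase Ppib, at 198 ± 11.2 and 196 ± 9.53. Of 16 other oxidoreductases 0 passed with either tool and 0 had an unadjusted p under 0.05, and of 17 translocation and signal peptidase genes 0 passed with either and 3 had such a p. The 18 N-glycosylation genes likewise gave 0 calls with either tool and 3 such p-values. The selenoprotein Selenof stood at 119 ± 3.34 and 121 ± 7.04 FPKM, the thioredoxin-like Tmx2 at 105 ± 4.44 and 106 ± 4.93, and the oligosaccharyltransferase subunits Rpn1 and Ddost at 119 ± 2.26 and 121 ± 4.09 and at 113 ± 5.88 and 114 ± 4.23. The most abundant translocation genes were Ssr4, at 116 ± 3.19 and 124 ± 3.003 FPKM, and the translocon gamma subunit Sec61g, at 115 ± 4.58 and 100.2 ± 9.63.

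Of 24 other degradation genes 1 rose and none fell in limma (4.17%, against 6.66% of all tested genes), and limma-voom called 2 higher. The unadjusted p was under 0.05 for 6 of the 24, against 25.7% of all tested genes. The perhexiline libraries lay entirely above the vehicle libraries for 7 and entirely below for 1, against 17.0% and 14.9%. The gene that rose was Ube2g2, the ubiquitin-conjugating enzyme used by ER-associated ligases, which stood at 26.8, 28.3 and 28.7 FPKM with vehicle and 31.9, 33.9 and 33.4 with perhexiline (log2 difference 0.24 ± 0.0521, adjusted p = 0.0421 in limma). Differences were above 0 for 18 of the 24, with a median of 0.06. Of 16 unfolded protein response signalling genes 1 rose and none fell in limma, and limma-voom called 1. At an unadjusted p under 0.05 there were 8 of the 16, against 25.7% of all tested genes. The perhexiline libraries lay above all vehicle libraries for 8 of these genes and below them for 1, against 17.0% and 14.9%. The called gene was Traf2, an adaptor that binds IRE1 and also tumour necrosis factor receptors, from 31.5 ± 1.66 to 42.7 ± 2.93 FPKM (adjusted p = 0.0203 in limma). Atf6 stood at 18.3, 17.5 and 19.1 FPKM with vehicle and 19.2, 23.2 and 24.0 with perhexiline, without overlap, and did not pass (adjusted p = 0.126 in limma).

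The PERK-ATF4-CHOP list gave 10 rises and no fall among 21 tested genes (47.6%), with a median log2 difference of 0.29. This list was written with earlier results of these data known. Its name is a label, and whether PERK activity had a part in the rises was not tested. Over all tested genes 3.55% were called higher and 3.11% lower, and the median log2 difference was 0.01. Atf4 stood at 167, 143 and 156 FPKM with vehicle and 188, 204 and 187 with perhexiline (log2 difference 0.31 ± 0.0674, adjusted p = 0.0390 in limma). Ddit3, which encodes CHOP, stood at 35.2, 40.9 and 53.4 FPKM with vehicle and 64.2, 78.9 and 72.1 with perhexiline (0.73 ± 0.146, adjusted p = 0.0332 in limma). For both genes every perhexiline library was above every vehicle library. Those with the smallest adjusted p were the mTORC1 inhibitor gene Ddit4, the transcription factors Cebpb and Atf3 and the amino acid transporter chain Slc3a2, with log2 differences of 0.91, 0.84, 1.11 and 0.38. On the same scale the 31 tested members ran from -0.13 (Calr) to 0.42 (Dnajb9). In the same libraries 6 of 11 immediate early genes rose (54.5%, against 3.55% of all tested genes), and their part in these rises was not tested.

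**Figure D4:**
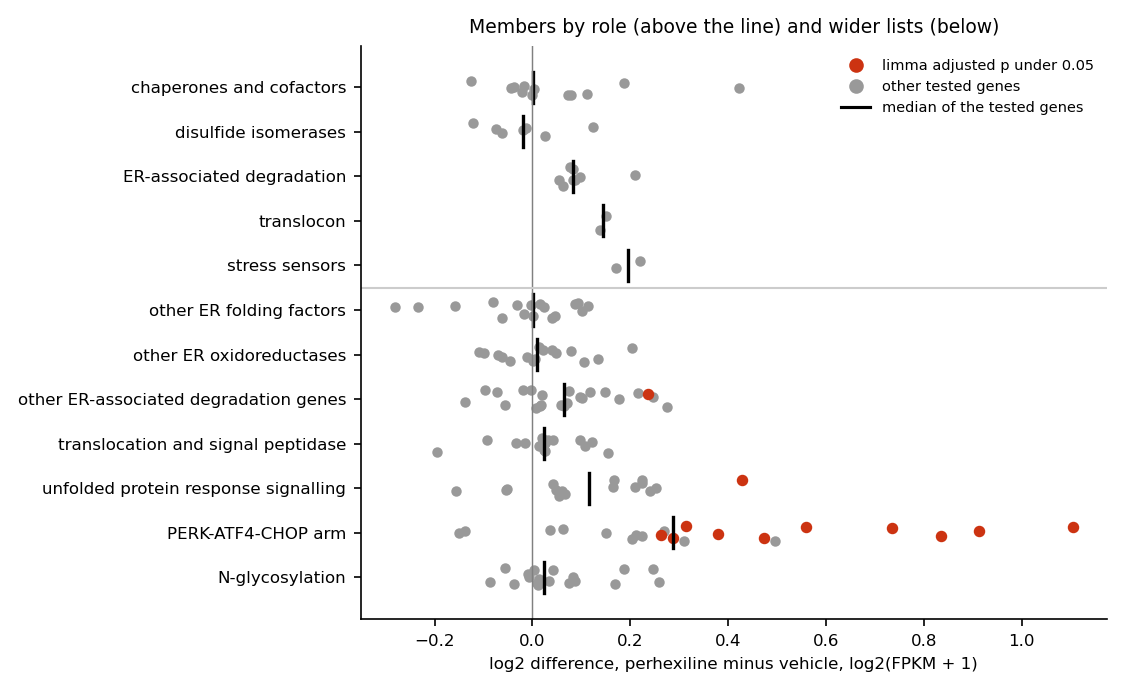
Log2 difference (perhexiline minus vehicle) of every tested gene, in rows for the 5 roles of the members above the line and 7 wider lists below it; red points passed limma at an adjusted p under 0.05, grey points did not, and black bars are medians. No member is red, 1 point each is red among the other degradation and the signalling genes, and 10 are red in the PERK-ATF4-CHOP list.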

How the data were processed

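The authors deposited FPKM values per gene and library, per the file headers, with gene lengths in bases. HISAT2 2.0.5 and DESeq2 are named, per the submitters' processing notes, with no role. The sources used here do not give genome build, annotation, counter or use of strand, so reads shared with paralogs, pseudogenes or antisense genes cannot be told apart. FPKM times gene length gave whole multiples of 1 step per library (100.0% of positive values within 0.01), taken as fragments for limma-voom and total-fragment scaling.

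The test was limma 3.58.1 in R 4.3.3 (trended empirical Bayes, two-sided) on log2(FPKM + 1), which understates changes of low genes, fitted on 13460 genes and checked on simulated data. Libraries were grouped by their titles. Members and lists were chosen with earlier results of these data known. Values in every library are given for called members, the 2 most abundant and the extreme members of each role, and both sensors. Of each wider list up to 4 called genes with the smallest adjusted p are named, otherwise the 2 most abundant, and Atf6, Xbp1, Atf4 and Ddit3 always. Promoter windows are RefSeq's, matched by symbol. The sequence of 1 matched element is not reported here. Alternatives were other scalings, filters, pseudocounts, limma-voom, a replicate block and leaving out each library.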

Additional observations from a re-analysis of the deposited data

How the results depend on the processing

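No member was called under the other pseudocounts, upper-quartile or median-of-ratios scaling, no filter, limma-voom, the replicate block, or without any 1 library. Total-fragment scaling raised the difference of every tested member, with a median of 0.13 in place of 0.07, and called 2 members higher (Selenos and Sec61a1). A mean FPKM of at least 5 called 1 (Selenos). There 9282 genes were tested in place of 13460, and the log2 difference of Selenos was unchanged at 0.21. Why it passed under that filter was not tested. Over all genes the count of 896 was 162 with no filter, 1570 with limma-voom and 173 with the replicate block. Without 1 library it ran from 108 to 894, falling to 136 and 140 without vehicle replicates 1 and 2 and to 145 and 108 without perhexiline replicates 2 and 3. Over the tested genes, deviations of same-numbered libraries from their group means correlated at -0.0228, -0.101 and -0.0387. The labels do not say whether same-numbered libraries share a culture or batch. With 3 libraries per group, these correlations cannot decide it.

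Signs turned for 9 members near 0. Under total-fragment scaling the log2 differences became 0.0342 for Hsp90b1, 0.0392 for Canx, 0.0115 for Dnajb11, 0.0488 for Sil1, 0.0157 for Creld2, 0.0346 for Pdia4 and 0.0402 for Txndc11. Manf became -0.024 under upper-quartile scaling, -0.00395 under median-of-ratios scaling and -0.00438 with limma-voom, and P4hb became -0.00167 under upper-quartile scaling. Without 1 library the differences ran from -0.0907 to 0.0334 for Hsp90b1, -0.0602 to 0.0415 for Canx, -0.13 to 0.0216 for Dnajb11, -0.0378 to 0.0478 for Sil1, -0.109 to 0.0186 for Creld2, -0.0725 to 0.0331 for Pdia4, -0.0959 to 0.0686 for Txndc11, -0.0485 to 0.0595 for Manf and -0.0309 to 0.0574 for P4hb. The other 22 members kept their sign. With 3 libraries per group, the intervals given beside the members are the limit of precision.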
